A study of Mus musculus with 3 samples.

Results

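Chemokine receptors are the surface proteins by which leukocytes read gradients of chemokines, and the genes of 9 of them are described here: Ccr7 (ENSMUSG00000037944), Xcr1 (ENSMUSG00000060509), Ccr2 (ENSMUSG00000049103), Ccr1 (ENSMUSG00000025804), Cx3cr1 (ENSMUSG00000052336), Cxcr4 (ENSMUSG00000045382), Ccr9 (ENSMUSG00000029530), Ccr6 (ENSMUSG00000040899) and Cxcr3 (ENSMUSG00000050232). They were chosen by name, with earlier results of these data known, and not by a threshold on their values. They are 9 of the 32285 genes counted. Their transcripts were followed through the clusters of type 1 conventional dendritic cells (cDC1s) of a tumour, and through the cells sorted and sequenced beside them.

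The cells came from MCA205 LA-OVA tumours, a transplanted mouse fibrosarcoma that carries the model antigen OVA, taken on day 5 from mice of the C57BL/6J background, males and females between 6 and 20 weeks old. Tumours were pooled within each genotype: 25 male and 12 female wild-type (WT) mice, 15 male and 16 female sGSN-/- mice, which lack secreted gelsolin, and 10 male and 17 female sGSN-/-Clec9a-/- mice, which lack DNGR-1, the product of Clec9a, as well. Pre-cDCs (CD135+ CD43+), XCR1+ cDC1s and SIRPA+ cDC2s were sorted from live CD45+ CD11c+ MHCII+ CD88- cells after gating out T and NK cells (CD3e, NK1.1), B cells and plasmacytoid cells (B220, Ly6D), granulocytes (Siglec-F, Ly6G) and red cells (TER-119), and the fractions were mixed again for droplet-based single-cell RNA sequencing. Each genotype is therefore 1 library from 1 pool, so that pool and genotype cannot be told apart, and the shares of the fractions in a library were set when they were mixed.

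Each transcript captured was counted as a unique molecular identifier (UMI). The WT library held 12763 barcodes and 176578136 UMIs (median per barcode 13210), the sGSN-/- library 8173 barcodes and 109270958 UMIs (median 11954), and the sGSN-/-Clec9a-/- library 9273 barcodes and 113411930 UMIs (median 10649). A table deposited by the authors places 5806 barcodes in cDC1 clusters 0 to 11. Cluster 11, with 60 barcodes at a median of 2348 UMIs, is not among the states ordered here, which leaves 5746 cDC1s: 2297 of WT with 32632707 UMIs, 1683 of sGSN-/- with 23484763 and 1766 of sGSN-/-Clec9a-/- with 21444320. Of the 30128 barcode sequences, 81 occurred in more than 1 library, 7 of them among these cDC1s and 0 in all 3 libraries. Clec9a, the gene targeted in the double-deficient mice, stood at 168 UMIs per 1e6 of the group (CPM; 95% interval 164 to 173) in WT cDC1s, at 168 (163 to 174) in sGSN-/- and at 0.0933 (0.0113 to 0.337, 2 UMIs) in sGSN-/-Clec9a-/-, as the label requires. The sGSN-/- label was not checked, since counts per gene do not separate the transcript of secreted gelsolin from the other Gsn transcripts.

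Chemokine receptors are G protein-coupled receptors: the ligand activates inhibitory G proteins, which turn the actin cytoskeleton towards the source, and kinases and arrestins then switch the receptor off. Which receptors a dendritic cell carries changes along its life. Precursors use inflammatory receptors to enter tissue from blood, resident cells use receptors that hold them near their partners, and mature cells switch to CCR7, which leads them through lymphatics to the T cell zones of lymph nodes.

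A level in CPM divides a gene's UMIs by the total of its library and group of cells, and groups are also given as mean ± SD over the 3 libraries (n = 3). Because the libraries differ in genotype, that SD includes any difference between genotypes. Clusters were grouped and ordered as early (clusters 4 and 1; 1332 cells), resting (5, 2, 3, 6 and 0; 3499 cells) and activated (7, 9, 8 and 10; 915 cells). Groups were compared on sums per library with edgeR's quasi-likelihood F-test and Benjamini-Hochberg (BH) adjustment over all genes tested, at a threshold of 0.05. Each adjusted p weighs a difference between groups against the spread of the sums over libraries. Because the clusters had themselves been called from these counts by the authors, it does not say whether a cluster exists. All comparisons of cDC1 states and clusters with resting cells share the resting sums. Ccr7 helped to annotate cluster 8 and XCR1 defined the cDC1 gate, so the differences of these 2 genes between such groups are descriptions.

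All barcodes that passed filters, 28855, were clustered again without the 25 chemokine receptor genes of the matrices. Of the 24403 outside the authors' table, 16458 fell in a class named from marker genes: cDC2-like (3270), pre-cDC-like (2462), monocyte- or macrophage-like (3881), activated cDC-like (191), plasmacytoid-like (359), natural killer (NK) cell-like (3276), T cell-like (317), cDC1-like (1182) and proliferating-like (1520). Another 6594 stayed unnamed and 1351 were filtered out for few genes or a high mitochondrial share. The gates on NK1.1, CD3e, B220 and Ly6D would remove NK, T and plasmacytoid cells, and that on CD88 monocytes and macrophages, and why barcodes of those classes were sequenced was not tested. Shares of cells with at least 1 UMI of a gene were measured after every cell was thinned to 3900 UMIs, which left out 234 cDC1s, 57 of them in cluster 8, and most are printed with the share without thinning. The intervals printed are exact (Poisson for levels, Clopper-Pearson for shares) and cover counting error only.

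Between the states of cDC1s some receptors were called higher, some were called lower and others did not pass. Against resting cells, activated cDC1s had more Ccr7 and Cxcr4 and less Ccr2 and Cxcr3, and early cDC1s had more Cxcr4, Cx3cr1 and Ccr1 and less Xcr1 and Cxcr3. Of 8 receptors tested between activated and resting cells, 2 rose and 2 fell, where 16.3% and 11.4% of all 10207 genes tested did so. Of the 8 tested between early and resting cells, 3 rose and 2 fell, against 17.2% and 18.2% of all genes tested. Ccr6 had too few counts for either test. The median log2 fold change of the tested receptors was 0.28 between activated and resting and 1.01 between early and resting cells, and that of all genes -0.03 and -0.01.

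Of the 4 activated clusters, cluster 8 differed from resting cells in the most receptors. All 7 receptors tested there passed the threshold against resting cells: Ccr7, Cxcr4, Cx3cr1 and Ccr1 were higher and Xcr1, Ccr2 and Cxcr3 lower, where 25.5% of all 9037 genes tested were higher and 22.2% lower. Among these, Ccr7 and Xcr1 are descriptions, since Ccr7 helped to annotate cluster 8 and XCR1 defined the cDC1 gate. Ccr1 had 0 UMIs in cluster 8 of sGSN-/-Clec9a-/-, and its call was lost under alternatives given below. In cluster 10, 1 of 7 was higher and 2 were lower (all genes: 8.32% and 6.34%), and in cluster 7, 1 of 7 was higher and 2 lower (11.8% and 5.39%). In cluster 9 edgeR called 0 of 7 receptors (all genes: 4.15% higher and 1.17% lower), with 0 at an unadjusted p under 0.05 and 0 called by DESeq2. Compared directly, 3 of 7 receptors were higher in cluster 8 than in cluster 10 and 1 was lower (16% and 11.6% of all genes). Whether the receptors of 1 cluster differ from resting cells more than those of another was tested between clusters 8 and 10 alone.

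**Figure D1:**
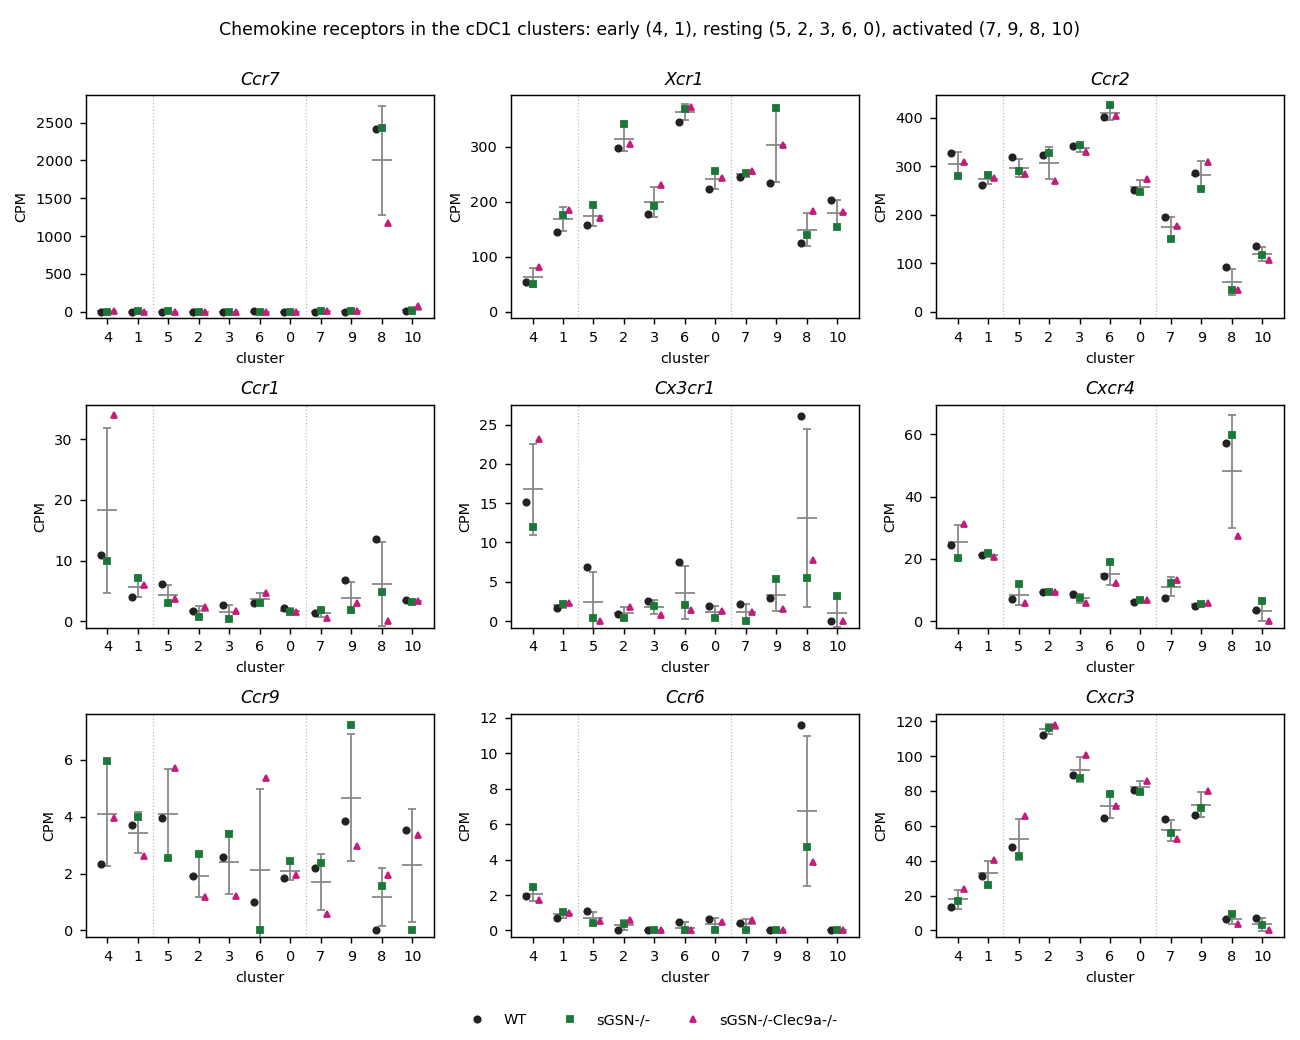
Level of each receptor gene (CPM, vertical axes) in each cDC1 cluster (horizontal axes, from early 4 and 1 through resting 5, 2, 3, 6 and 0 to activated 7, 9, 8 and 10); points are the 3 libraries, grey lines mark their mean and bars the SD (n = 3). Ccr7 stands high in cluster 8, from 1166 to 2424 CPM, and Ccr2 and Cxcr3 are low in clusters 8 and 10.

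CCR7 binds CCL19 and CCL21 and takes dendritic cells from tissue to the draining lymph node. In cluster 8 Ccr7 stood at 2412 CPM in WT, 2424 in sGSN-/- and 1166 in sGSN-/-Clec9a-/- (2001 ± 723), from 2490, 3079 and 601 UMIs. The level in sGSN-/-Clec9a-/- was below those of the other libraries, whose intervals overlapped. Every other cluster lay far lower: resting cells held 1.14 CPM in WT, 0.892 in sGSN-/- and 0.448 in sGSN-/-Clec9a-/- (0.826 ± 0.349), and early cells 1.60 in WT, 3.11 in sGSN-/- and 2.49 in sGSN-/-Clec9a-/- (2.4 ± 0.760). In the order of the 11 clusters only cluster 8 stood clear of its neighbour, while the ranges of neighbours overlapped from cluster 10 down to cluster 2. Cluster 8, 255 of the 5746 cells, held 98.4% of the Ccr7 UMIs of WT cDC1s, 98.0% of those of sGSN-/- and 92.6% of those of sGSN-/-Clec9a-/-. The fitted log2 fold change over resting cells was 11.34 (SE 0.44), 2593-fold, in 3 of 3 libraries.

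Cell by cell, Ccr7 was counted in 73 of 84 WT cells of cluster 8, 101 of 114 sGSN-/- cells and 37 of 57 sGSN-/-Clec9a-/- cells, with a median of 23, 21 and 4 UMIs per cell. The cells without a Ccr7 UMI made up 13.1% (95% interval 6.72 to 22.2) of cluster 8 in WT, 11.4% (6.21 to 18.7) in sGSN-/- and 35.1% (22.9 to 48.9) in sGSN-/-Clec9a-/-. So the lower level of that last library went with more cells without Ccr7, and among cells with a UMI it was closer to the others, at 2799, 2621 and 1983 CPM. Thinned to equal depth, 83.8% of cluster 8 cells held Ccr7 (82.7% unthinned), beside 2.87% (5.18%) of monocyte- or macrophage-like barcodes, a class in which the gene should be rare (median UMIs 10867 and 14484).

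**Figure D2:**
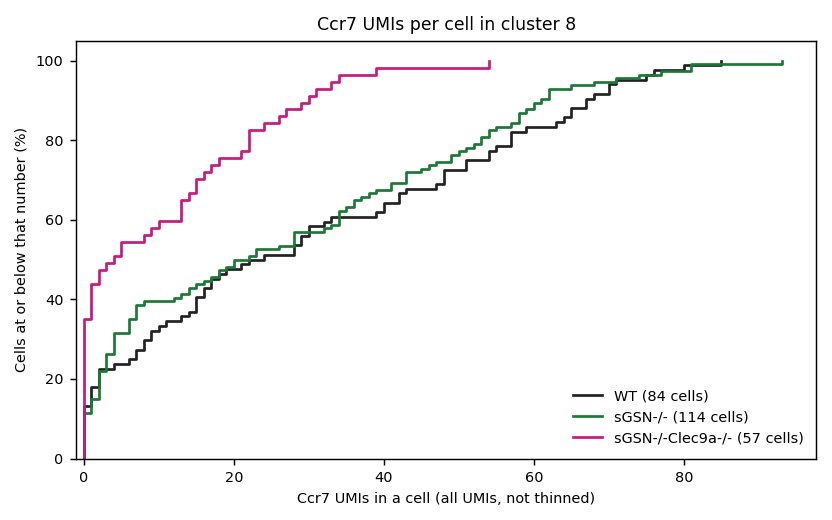
Cumulative share of cluster 8 cells (vertical axis, percent) with at most a given number of Ccr7 UMIs (horizontal axis) in WT (84 cells), sGSN-/- (114 cells) and sGSN-/-Clec9a-/- (57 cells), unthinned. The sGSN-/-Clec9a-/- line starts higher, at 35.1% of cells without a UMI.

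The 44 cells of cluster 8 without a Ccr7 UMI were not shallower than the 211 with one (median UMIs 12207 and 10815), though the 13 of sGSN-/- were, at 3611. Their activated cDC markers (8 genes, among them Fscn1, Ccl22 and Il4i1) summed to 877 CPM, against 5116 CPM in the cells with Ccr7. Xcr1 stood at 239.8 CPM in the cells without Ccr7 and at 123 in those with it, and Ccr2 at 99.9 and 54.5. After thinning, 59.4% of the cells without Ccr7 held Xcr1, as did 25.9% of the cells with it. Clustering all barcodes without chemokine receptor genes placed 198 of the 211 cells with Ccr7 in the activated cDC cluster, and 16 of the 44 without it. These cells were divided by Ccr7 itself, so the values are a description. Over cluster 8 as a whole the 8 markers summed to 5472, 4117 and 3163 CPM in WT, sGSN-/- and sGSN-/-Clec9a-/-, led by Ccl22, and in resting cells to 107, 78.3 and 95.1.

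In the other activated clusters Ccr7 rested on few cells. Cluster 10 held 7.09 CPM in WT, 3.22 in sGSN-/- and 70.3 in sGSN-/-Clec9a-/-, or 2, 1 and 21 UMIs, and 2 sGSN-/-Clec9a-/- cells carried all 21 UMIs of their library. Its log2 fold change over resting cells was 4.89 (adjusted p = 0.00171, higher in 3 of 3 libraries), and without the sGSN-/-Clec9a-/- library it was 2.19 (adjusted p = 0.465); without WT it was 5.66. Cluster 7 held 1.32 CPM in WT, 14.2 in sGSN-/- and 3.99 in sGSN-/-Clec9a-/-, with 19 of its 40 UMIs in 1 sGSN-/- cell. There the log2 fold change was 2.97 (adjusted p = 0.00812, higher in 3 of 3 libraries), without the sGSN-/- library 1.61 (adjusted p = 0.477) and without WT 3.81, and DESeq2 gave an adjusted p of 0.0538. Cluster 9 had 0, 3 and 2 UMIs. Directly compared, Ccr7 was 87.2-fold higher in cluster 8 than in cluster 10 (log2 fold change 6.45, SE 0.46, 3 of 3 libraries), with 9.17 without sGSN-/-Clec9a-/- and 5.73 without sGSN-/-. Early cells did not pass against resting ones (log2 fold change 1.42, adjusted p = 0.276), but did with the library as a block (adjusted p = 0.00766). Of the 12 UMIs of sGSN-/-Clec9a-/- early cells, 11 came from 1 cell. Without doublets cluster 4 held 0.344 ± 0.300 CPM, and 0 UMIs in sGSN-/-Clec9a-/-, against 3.12 ± 3.20 with them. That lay below resting cells without doublets, at 0.828 ± 0.350.

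Outside the table, Ccr7 in the activated cDC-like class lay within the range of cluster 8: 2242 CPM in WT, 2107 in sGSN-/- and 1789 in sGSN-/-Clec9a-/- (2046 ± 233), and 185 of its 191 barcodes held a UMI (96.9%, and 93.9% after thinning). These cells held little Xcr1, 20.3, 11.7 and 30.5 CPM in the same order, and their 9 cDC1 markers summed to 701, 788 and 1323 CPM, against 1564, 1485 and 1842 in cluster 8. Their 9 monocyte or macrophage markers, led by Apoe, summed to 1371, 1266 and 1994 CPM, and the part of such transcripts in the values of this class was not tested. All other named classes were far lower: T cell-like 43.6 ± 24.5, monocyte- or macrophage-like 19.98 ± 9.98, cDC2-like 14.3 ± 3.33, NK cell-like 8.52 ± 4.28 and pre-cDC-like 3.91 ± 2.11 CPM. From the T cell-like class down, the ranges of neighbours overlapped. Against all cDC1s together Ccr7 was lower in cDC2-like (log2 fold change -2.45, SE 0.42) and pre-cDC-like cells (-4.36, SE 0.54; -5.05 without WT and -3.71 without sGSN-/-), in 3 of 3 libraries each, a difference that cluster 8 carries. By mean the direction was reversed for resting and early cDC1s, at 0.826 and 2.4 CPM, which lay below both classes. Cluster 8 was kept among the cDC1s, whereas activated cDC-like barcodes formed a class apart from cDC2-like cells. Cluster 8 and the other cDC1s together held 36.3%, 43.2% and 31.9% of all Ccr7 UMIs of the 3 libraries.

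XCR1 is the receptor of XCL1, made by NK and CD8+ T cells, and in mice it marks cDC1s, which is why it served as the sort gate here. Xcr1 was lowest in cluster 4, at 54.0 CPM in WT, 51.1 in sGSN-/- and 81.0 in sGSN-/-Clec9a-/- (62.1 ± 16.5), and highest in cluster 6, at 345 in WT, 369 in sGSN-/- and 372 in sGSN-/-Clec9a-/- (362 ± 14.5). Cluster 4 was lowest in every library and stood clear of its neighbour. Cluster 6 stood clear of cluster 2, the next by mean, but not of cluster 9, which reached 369.5 in sGSN-/-. Between them came cluster 2 (314 ± 23.2), 9 (302 ± 67.6), 7 (250.5 ± 5.51), 0 (241 ± 17), 3 (199 ± 27.6), 10 (179 ± 23.7), 5 (174 ± 18.9), 1 (168 ± 21.3) and 8 (149 ± 29.9), each with a range that overlapped the next in this list. Cluster 6 was also the shallowest of these clusters, with a median of 8530.5 UMIs, and at equal depth 68.3% of its cells held Xcr1 (86.1% unthinned), against 12.6% (22.7%) in cluster 4.

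By state, Xcr1 stood at 110.4 CPM in WT, 132 in sGSN-/- and 147 in sGSN-/-Clec9a-/- in early cells, at 234 in WT, 259 in sGSN-/- and 260.4 in sGSN-/-Clec9a-/- in resting cells and at 213 in WT, 227 in sGSN-/- and 247 in sGSN-/-Clec9a-/- in activated cells. Early cells were below resting cells in every library, 1.93-fold in the fit (log2 fold change -0.95, SE 0.11, adjusted p = 1.6e-05). Activated cells as a group did not pass (log2 fold change -0.07, adjusted p = 0.696). Cluster 8 did, with 125, 139 and 182 CPM in WT, sGSN-/- and sGSN-/-Clec9a-/- (log2 fold change -0.58, SE 0.16, adjusted p = 0.00357, lower in 3 of 3 libraries), and not without the sGSN-/- library (-0.54, adjusted p = 0.0588). In cluster 10 the log2 fold change of -0.51 missed the threshold (adjusted p = 0.0723) and passed with the library as a block (0.0153). Between clusters 8 and 10 Xcr1 did not pass (log2 fold change -0.07, adjusted p = 0.845).

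Away from cDC1s Xcr1 was low in most named classes. NK cell-like barcodes, which should lack it, held a UMI in 0.918% of thinned cells (2.26% unthinned; median 7790.5 UMIs), cDC2-like barcodes in 0.373% (1.62%; 13339) and pre-cDC-like in 0.619% (1.67%; 10022.5). Levels were 0.694 CPM in WT, 2.56 in sGSN-/- and 1.79 in sGSN-/-Clec9a-/- in cDC2-like and 1.43, 4.30 and 1.66 in pre-cDC-like cells of the same libraries. Against cDC1s these were 160.5-fold and 114-fold lower, in classes that the sort gates and marker genes define. Among the barcodes that the authors' table leaves out, cDC1-like cells held 204 ± 23.4 CPM and proliferating-like cells 109 ± 14.0. T cell-like barcodes held 29.7 ± 11 CPM, with a UMI in 5.68% of thinned cells (7.57% unthinned), above the NK cell-like level of 6.92 ± 3.0. Plasmacytoid-like barcodes held 13.2 in WT, 43.3 in sGSN-/- and 57.2 in sGSN-/-Clec9a-/-, and 4.92% of them a UMI after thinning (9.75% unthinned).

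CCR2, the receptor of CCL2, CCL7 and CCL12, brings monocytes and dendritic cell precursors from blood into inflamed tissue. Ccr2 was high through early and resting cDC1s: 286 CPM in WT, 281 in sGSN-/- and 288 in sGSN-/-Clec9a-/- in early and 312, 304 and 298 in resting cells of the same libraries. Activated cells held less, 189 in WT, 129 in sGSN-/- and 176 in sGSN-/-Clec9a-/-, below both other states in all 3 libraries, 1.77-fold lower than resting cells (log2 fold change -0.82, SE 0.10, adjusted p = 2.4e-05). Early and resting cells did not differ by the test (log2 fold change -0.09, adjusted p = 0.513). By cluster the highest level was in cluster 6, at 400.4 in WT, 426 in sGSN-/- and 403 in sGSN-/-Clec9a-/- (409.9 ± 14.2), then cluster 3 (338 ± 8.22), each clear of the next. Clusters 2, 4, 5, 9, 1 and 0 followed with overlapping neighbours, from 307 ± 32.6 to 257 ± 14.8.

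Among the activated clusters Ccr2 was lower in clusters 7, 10 and 8, given here in the order of their level. Cluster 9 stood among resting ones, at 283 ± 28.7 CPM. Cluster 7 held 195 in WT, 150.1 in sGSN-/- and 176 in sGSN-/-Clec9a-/- (173 ± 22.4), cluster 10 135 in WT, 116 in sGSN-/- and 107 in sGSN-/-Clec9a-/- (119 ± 14.1) and cluster 8 91.1 in WT, 44.9 in sGSN-/- and 44.6 in sGSN-/-Clec9a-/- (60.2 ± 26.7). The ranges of these 3 clusters did not overlap with each other or with a resting cluster. Ccr2 fell 1.62-fold in cluster 7 (log2 fold change -0.70, adjusted p = 0.000109), 2.59-fold in cluster 10 (-1.37, 1.4e-06) and 4.27-fold in cluster 8 (-2.09, 3.6e-12), in 3 of 3 libraries each. Cluster 8 was below cluster 10 in all 3 libraries (log2 fold change -0.72, SE 0.23, adjusted p = 0.0165), a call lost without the sGSN-/- library (-0.50, adjusted p = 0.197), without sGSN-/-Clec9a-/- (-0.64, 0.119) or on thinned cells (-0.97, 0.106). At equal depth 71.5% of cluster 6 cells held Ccr2 (85.5% unthinned) and 11.1% of cluster 8 cells (21.2%).

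Outside cDC1s Ccr2 was widespread, and no named class lacked it. Monocyte- or macrophage-like barcodes held 699 CPM in WT, 740.2 in sGSN-/- and 661 in sGSN-/-Clec9a-/-, pre-cDC-like barcodes 479 in WT, 459 in sGSN-/- and 467 in sGSN-/-Clec9a-/- and cDC2-like barcodes 394 in WT, 392 in sGSN-/- and 393 in sGSN-/-Clec9a-/-. These 3 classes kept that order in every library without overlap. T cell-like barcodes (249.8 ± 41.5) and activated cDC-like barcodes (257 ± 76.0) were lowest by mean, with ranges that overlapped that of cDC1-like barcodes. The activated cDC-like class had the fewest cells holding a UMI, 22.1% after thinning (28.3% unthinned). Ccr2 was 1.5-fold higher in pre-cDC-like cells than in cDC1s (log2 fold change 0.59, adjusted p = 1.2e-05), 1.42-fold higher in cDC2-like cells than in cDC1s (0.51, 7.3e-05), and 1.74-fold higher in monocyte- or macrophage-like than in cDC2-like cells (0.80, 2.2e-07), in 3 of 3 libraries each. The last call was lost (0.19, adjusted p = 0.194) when barcodes led by Retnla and Ear2, and cycling cells with like markers, were counted as cDC2-like; they had been kept apart by a rule amended after seeing the data. Within the monocyte- or macrophage-like class the cluster led by C1q genes held 786, 847 and 764 CPM in WT, sGSN-/- and sGSN-/-Clec9a-/-. Whether reads of near-identical receptor genes were always told apart was not tested.

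CCR1 binds several inflammatory chemokines, among them CCL3, CCL5, CCL6, CCL7 and CCL9, and is carried by monocytes, neutrophils and precursors. In cDC1s Ccr1 was rare: 128 UMIs in WT, 79 in sGSN-/- and 114 in sGSN-/-Clec9a-/-. Early cells held 6.55 CPM in WT, 8.12 in sGSN-/- and 16.2 in sGSN-/-Clec9a-/- and resting cells 2.75, 1.49 and 2.39 in the same libraries. Each library had more in early cells, 4.43-fold in the fit (log2 fold change 2.15, SE 0.36, adjusted p = 0.000387). Cluster 4 was highest by mean, at 10.9 in WT, 9.93 in sGSN-/- and 34.0 in sGSN-/-Clec9a-/- (18.3 ± 13.6), with the highest value in sGSN-/-Clec9a-/-, and cluster 1, at 5.67 ± 1.62, was above resting cells in every library too. Neighbours overlapped from cluster 4 down to cluster 10, and clusters 0, 2, 3 and 7 stood lowest, between 1.26 and 1.73 CPM on average.

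CX3CR1, the receptor of CX3CL1 (fractalkine), marks monocytes, macrophages and early dendritic cell progenitors. In cDC1s Cx3cr1 stood at 6.69 CPM in WT, 5.53 in sGSN-/- and 9.96 in sGSN-/-Clec9a-/- in early and 2.98, 0.818 and 1.12 in resting cells of the same libraries. Early cells were higher in all 3 libraries, 4.10-fold (log2 fold change 2.03, SE 0.43, adjusted p = 0.00205; 2.97 without WT). Cluster 4 carried it, at 15.2 in WT, 11.9 in sGSN-/- and 23.2 in sGSN-/-Clec9a-/- (16.8 ± 5.83), whereas cluster 1 held 2.01 ± 0.345. At equal depth 4.48% of cluster 4 cells held Cx3cr1 (11.3% unthinned) and 4.28% held Ccr1 (11.3%), against 0.855% (4.65%) and 1.88% (7.19%) of cDC1-like barcodes outside the table, the class with the lowest level of both genes. The 9 monocyte or macrophage markers summed to 168, 104 and 201 CPM in cluster 4 and to 59.7, 43.0 and 48.7 in resting cells. Leaving out the 38 cDC1s with 10 or more such marker UMIs, 21 of them in cluster 4, a step chosen after seeing the data, gave log2 fold changes of 1.95 for Ccr1 and 1.88 for Cx3cr1 (adjusted p = 0.000301 and 0.000984).

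Both genes were also called higher in cluster 8. Cx3cr1 stood there at 26.2 CPM in WT, 5.51 in sGSN-/- and 7.76 in sGSN-/-Clec9a-/- (27, 7 and 4 UMIs; 13.1 ± 11.3) and Ccr1 at 13.6, 4.72 and 0 (14, 6 and 0 UMIs). WT was highest for both. After thinning 2.02% of cluster 8 cells held Cx3cr1 (6.27% unthinned), against 0.560% (1.86%) of resting cells. For Ccr1 the thinned shares went the other way, at 0.505% (3.53% unthinned) in cluster 8 and 0.854% (2.69%) in resting cells. Of the WT cells of cluster 8, 4 with 10 or more monocyte or macrophage marker UMIs carried 552 of that cluster's 633 marker UMIs, 19 of its 27 Cx3cr1 UMIs, 11 of its 14 Ccr1 UMIs and 154 Ccr7 UMIs. In the other libraries cluster 8 held 77 and 39 marker UMIs, and the marker sums were 613, 60.6 and 75.7 CPM in WT, sGSN-/- and sGSN-/-Clec9a-/-, led by Apoe. The log2 fold change of Cx3cr1 over resting cells was 3.12 (SE 0.54, adjusted p = 1.7e-05, higher in 3 of 3 libraries), and 2.30 (adjusted p = 0.00154) without the cells rich in these markers. That of Ccr1 was 1.84 (adjusted p = 0.0182, higher in 2 of 3 libraries), and it lost its call without those cells (0.79, adjusted p = 0.413), without WT (0.97, 0.478) and without sGSN-/- (1.95, 0.0628).

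Cx3cr1 was called higher in cluster 8 than in cluster 10, which held 0, 1 and 0 UMIs, 12-fold (95% counting interval 2.03 to 487, over 3 libraries together) (fitted log2 fold change 3.78, SE 1.39, adjusted p = 0.0430, higher in 3 of 3 libraries). The call was lost without WT (2.11, 0.353), without sGSN-/-Clec9a-/- (3.40, 0.122), without the cells rich in macrophage markers (2.88, 0.125), without doublets (0.0666) and without TMM factors (0.0633), and the value rose to 9.41 without sGSN-/-. For activated cells as a whole Cx3cr1 missed the threshold (log2 fold change 1.34, adjusted p = 0.0673), but passed with the library as a block (0.0121), and Ccr1 did not pass (0.63, 0.382).

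The levels of both genes in other myeloid cells were of another order. Ccr1 reached 243 CPM in WT, 241 in sGSN-/- and 235 in sGSN-/-Clec9a-/- in monocyte- or macrophage-like, 224, 206 and 206 in cDC2-like and 91.2, 90.5 and 78.6 in pre-cDC-like cells of the same libraries. It was 51.2-fold higher in cDC2-like than in cDC1 cells (log2 fold change 5.68, SE 0.20, adjusted p = 3.6e-19) and 18.5-fold higher in pre-cDC-like cells (4.21, 1.8e-16), in 3 of 3 libraries, and did not pass between monocyte- or macrophage-like and cDC2-like cells (0.14, 0.532). After thinning 52.1% of cDC2-like (85.4% unthinned), 23.1% (40.7%) of pre-cDC-like and 1.02% (2.90%) of NK cell-like barcodes held a Ccr1 UMI. Ccr1 lies 8550 bases from its relative Ccr1l1, with the same limit as for Ccr2.

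Cx3cr1 was highest in monocyte- or macrophage-like cells, at 452 CPM in WT, 406 in sGSN-/- and 358 in sGSN-/-Clec9a-/-, and lower in pre-cDC-like cells (92.3, 82.3 and 96.6) and cDC2-like cells (61.1, 65.5 and 72.8). These 3 classes did not overlap. Cx3cr1 was 23.7-fold higher in pre-cDC-like than in cDC1 cells (log2 fold change 4.57, adjusted p = 5.9e-15), 19.6-fold higher in cDC2-like cells (4.29, 1.5e-14), and 5.96-fold higher in monocyte- or macrophage-like than in cDC2-like cells (2.58, 4.1e-11), in 3 of 3 libraries each. Among thinned monocyte- or macrophage-like cells, 61.6% of those with Ccr2 held Cx3cr1 and 34.2% of those without it. The Cx3cr1 gene model overlaps 3 genes of its own strand (Gorasp1, Csrnp1 and Xirp1), so that some of its counts are uncertain.

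CXCR4 is the receptor of CXCL12 and holds leukocytes in bone marrow and in stromal niches. By mean, Cxcr4 in cDC1s was highest in cluster 8 and in the early clusters, and lowest in cluster 10. The ranges of clusters 8 and 4 overlapped, as did those of clusters 9 and 10, and cluster 10 rested on 3 UMIs. Early cells held 22.4 CPM in WT, 21.4 in sGSN-/- and 24.5 in sGSN-/-Clec9a-/-, resting cells 8.33 in WT, 9.37 in sGSN-/- and 7.62 in sGSN-/-Clec9a-/- and activated cells 17.7 in WT, 25.2 in sGSN-/- and 12.6 in sGSN-/-Clec9a-/-. Both early and activated cells were above resting cells in every library: 2.70-fold for early (log2 fold change 1.43, SE 0.16, adjusted p = 1.3e-05) and 2.34-fold for activated cells (1.23, SE 0.18, 0.000110). Clusters 4 (24.5 in WT, 20.3 in sGSN-/- and 31.2 in sGSN-/-Clec9a-/-) and 1 (21.2, 22.0 and 20.6) gave the early level, and their ranges overlapped. From cluster 6 (15.2 ± 3.56) to cluster 0 (6.52 ± 0.448) neighbours overlapped too, below clusters 8, 4 and 1.

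Among activated cells the rise was in cluster 8, at 57.2 CPM in WT, 59.8 in sGSN-/- and 27.2 in sGSN-/-Clec9a-/- (59, 76 and 14 UMIs; 48.1 ± 18.1), lowest in sGSN-/-Clec9a-/-. Cluster 7 held 11 ± 3.06, cluster 9 5.38 ± 0.560 and cluster 10 3.33 ± 3.23 with 1, 2 and 0 UMIs. Cluster 8 exceeded resting cells 7.14-fold (log2 fold change 2.84, SE 0.20, adjusted p = 8.5e-13) and cluster 10 15.7-fold (95% counting interval 5.27 to 77.0, over 3 libraries together) (fitted 4.16, SE 0.56, 1.2e-06; 4.94 without sGSN-/-), in 3 of 3 libraries. After thinning 17.2% of cluster 8 cells held Cxcr4 (31.4% unthinned), against 3.15% (8.35%) of resting cells, 8.74% (19.3%) of early cells and 4.79% (15.3%) of cDC1-like barcodes outside the table, the lowest named class. Of the thinned cluster 8 cells with Ccr7, 18.7% also held Cxcr4, and of those without Ccr7, 9.38%.

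All named classes but the cDC1-like one (12.1 ± 0.968 CPM) had more Cxcr4 than cDC1s as a whole, 12.6 CPM in WT, 15.2 in sGSN-/- and 12.2 in sGSN-/-Clec9a-/-, in every library. Activated cDC-like barcodes held 92.8 in WT, 80.9 in sGSN-/- and 141 in sGSN-/-Clec9a-/-, T cell-like 94.6 ± 15 and monocyte- or macrophage-like 91.9 ± 5.84, with overlapping ranges. Then came NK cell-like (71.1 ± 10.02), cDC2-like (54.7 ± 3.64), proliferating-like (44.3 ± 1.81), pre-cDC-like (35.8 ± 4.15) and plasmacytoid-like barcodes (31.0 ± 1.75). Cxcr4 was 4.13-fold higher in cDC2-like than in cDC1 cells (log2 fold change 2.05, adjusted p = 3.2e-15), 2.42-fold in pre-cDC-like cells (1.28, 3.1e-10) and 1.64-fold higher in monocyte- or macrophage-like than in cDC2-like cells (0.71, 2.2e-06), in 3 of 3 libraries each.

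CXCR3 binds CXCL9, CXCL10 and CXCL11, chemokines induced by interferon, and is best known from effector T cells and NK cells. In cDC1s it was highest in the resting state. Early cells held 24.4 CPM in WT, 23.0 in sGSN-/- and 34.5 in sGSN-/-Clec9a-/-, resting cells 84.5 in WT, 82.5 in sGSN-/- and 92.2 in sGSN-/-Clec9a-/- and activated cells 48.3 in WT, 40.03 in sGSN-/- and 45.6 in sGSN-/-Clec9a-/-. Resting cells were highest in every library and early cells lowest, without overlap. Against resting cells Cxcr3 was 3.19-fold lower in early cells (log2 fold change -1.67, SE 0.13, adjusted p = 4.2e-07) and 1.85-fold lower in activated cells (-0.89, SE 0.13, 9.9e-05).

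The clusters formed a ladder. Cluster 2 was highest, at 112 in WT, 116 in sGSN-/- and 118 in sGSN-/-Clec9a-/- (115 ± 2.84), then cluster 3 (92.3 ± 7.36), each clear of the next, then clusters 0, 9 and 6 (82.0 ± 3.41, 72.2 ± 7.02 and 71.5 ± 6.83), and 7 and 5 (57.4 ± 5.95 and 52.2 ± 11.9). Cluster 1, at 31.2 in WT, 26.3 in sGSN-/- and 40.6 in sGSN-/-Clec9a-/-, and cluster 4, at 13.2 in WT, 16.9 in sGSN-/- and 23.8 in sGSN-/-Clec9a-/-, stood below these and apart from each other. At the foot came cluster 8 with 6.78 in WT, 9.45 in sGSN-/- and 3.88 in sGSN-/-Clec9a-/- (7, 12 and 2 UMIs) and cluster 10 with 2, 1 and 0 UMIs, which overlapped. Cxcr3 was lower in cluster 8 than in resting cells (log2 fold change -3.32, SE 0.27, adjusted p = 1.9e-11; -4.80 on thinned cells) and lower in cluster 10, by 25.6-fold (95% counting interval 8.75 to 124, over 3 libraries together) (fitted -4.68, SE 0.51, 4.8e-08; -5.72 without WT and -4.10 without sGSN-/-Clec9a-/-), in 3 of 3 libraries. In cluster 7 it was 1.39-fold lower (-0.47, adjusted p = 0.0140, in 3 of 3 libraries), a call lost without the sGSN-/- library (-0.49, 0.123) and on thinned cells (-0.35, 0.168).

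After thinning 35.3% of cluster 2 cells held Cxcr3 (73.2% unthinned), against 1.09% (3.89%) of monocyte- or macrophage-like barcodes, which should lack it (median UMIs 14381.5 and 14484), and 1.01% (5.88%) of cluster 8 cells, no higher after thinning. In early cells 12.4% of those with Xcr1 held Cxcr3 and 5.94% of those without Xcr1; in resting cells the shares were 28.7% and 25.5%. Outside the table Cxcr3 was highest in T cell-like barcodes (95.1 CPM in WT, 61.7 in sGSN-/- and 93.2 in sGSN-/-Clec9a-/-), then plasmacytoid-like (46.7 ± 9.70), cDC1-like (42.2 ± 6.05) and NK cell-like (31.6 ± 3.86). It was almost missing from cDC2-like (0.810, 0.445 and 0.848) and pre-cDC-like cells (0.676, 1.03 and 1.97), 87.7-fold and 67.5-fold lower than in cDC1s (log2 fold change -6.46, adjusted p = 3.4e-18, and -6.08, 4.6e-17), in 3 of 3 libraries each. Between monocyte- or macrophage-like (3.03, 2.82 and 2.90) and cDC2-like cells it was 3.81-fold higher in the former (1.93, 0.000228, 3 of 3 libraries), at levels near background in both, and the call was lost with the Retnla and Ear2 barcodes counted as cDC2-like (0.42, 0.308).

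CCR9, the receptor of CCL25, guides cells to the small intestine and thymus and is carried by plasmacytoid dendritic cells. In cDC1s Ccr9 stayed between 1.17 (cluster 8) and 4.67 CPM (cluster 9) on average, with overlapping neighbours all along. It was 3.20 in WT, 4.67 in sGSN-/- and 3.11 in sGSN-/-Clec9a-/- in early, 2.23, 2.53 and 2.54 in resting and 2.16, 2.59 and 1.54 in activated cells, and neither early (log2 fold change 0.60, adjusted p = 0.0620) nor activated cells (-0.11, 0.859) passed. In thinned cDC1s 0.998% of cells held a UMI (3.10% unthinned), beside 0.495% (0.794%) of NK cell-like barcodes, which should lack it, at median depths of 13545.5 and 7790.5 UMIs. By level NK cell-like barcodes were higher on average, at 3.62 ± 2.26 CPM against 2.67 ± 0.348 in all cDC1s.

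Plasmacytoid-like barcodes held 1011 CPM in WT, 885 in sGSN-/- and 658 in sGSN-/-Clec9a-/- (851 ± 179). WT was highest and sGSN-/-Clec9a-/- lowest, and every value was far above those of any other class. A Ccr9 UMI was found in 342 of the 359 barcodes, 95.3%, and in 88.9% after thinning. Their 8 plasmacytoid markers, led by Siglech, summed to 5212, 5378 and 4411 CPM, and to 529.6, 774 and 515 in pre-cDC-like cells, led by Tcf4. The sort gated out B220+ and Ly6D+ cells, which would remove most cells of this class. Pre-cDC-like cells came next with 45.8 CPM in WT, 71.2 in sGSN-/- and 51.9 in sGSN-/-Clec9a-/-, sGSN-/- highest, 18.5-fold above cDC1s (log2 fold change 4.21, SE 0.22, adjusted p = 2.6e-15, 3 of 3 libraries), with a UMI in 12.5% of thinned cells (18.9% unthinned). cDC2-like (2.12, 2.0 and 1.88) and monocyte- or macrophage-like cells (0.958, 0.941 and 1.15) were near background. The first did not pass against cDC1s (-0.37, 0.380), and the latter missed the threshold against cDC2-like cells (-1.05, 0.0644) but passed with the library as a block (0.0473). The Ccr9 model overlaps 2 genes of its strand (Gm17200 and Gm17020).

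CCR6, the receptor of CCL20, places dendritic cells at mucosal and epithelial surfaces. In all cDC1s Ccr6 gave 29 UMIs in WT, 17 in sGSN-/- and 14 in sGSN-/-Clec9a-/-, too few for a test between cDC1 groups. Cluster 8 held 12, 6 and 2 of them, 11.6 CPM in WT, 4.72 in sGSN-/- and 3.88 in sGSN-/-Clec9a-/-, above every other cluster in each library, and clusters 3, 9 and 10 held 0. After thinning 3.54% of cluster 8 cells had a UMI (5.49% unthinned) and 0% of NK cell-like barcodes did (0 of 2831, interval up to 0.130%; 0.183% unthinned). The receptor belonged to cDC2-like cells, at 15.7 CPM in WT, 18.3 in sGSN-/- and 11.1 in sGSN-/-Clec9a-/- (407, 164 and 118 UMIs), and to the activated cDC-like class, at 16.3 in WT, 15 in sGSN-/- and 13.9 in sGSN-/-Clec9a-/-, with overlapping ranges. All other named classes were lower, from 2.82 ± 2.99 CPM in plasmacytoid-like to 0.206 ± 0.207 in NK cell-like barcodes.

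Ccr6 was 19.4-fold higher in cDC2-like cells than in cDC1s (log2 fold change 4.28, SE 0.27, adjusted p = 7.4e-14) and 13.5-fold lower in monocyte- or macrophage-like than in cDC2-like cells (-3.76, 8.4e-12), in 3 of 3 libraries each. Pre-cDC-like cells, at 2.48 CPM in WT, 2.24 in sGSN-/- and 1.36 in sGSN-/-Clec9a-/-, were 2.42-fold above cDC1s (1.28, 0.00723, 3 of 3 libraries), a call lost without WT (1.18, 0.103). After thinning 5.91% of cDC2-like cells held Ccr6 (14.6% unthinned). The 270, 109 and 98 cDC2-like cells with a Ccr6 UMI had more Ltb, 229, 227 and 229 CPM, than those without (87.7, 107 and 96.0), and more Tbc1d4, 300.0, 202 and 171 against 97.0, 95.8 and 72.5. The 2 sets of cells had like depths, with medians of 13941.5 and 14000.0 UMIs in WT.

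**Figure D3:**
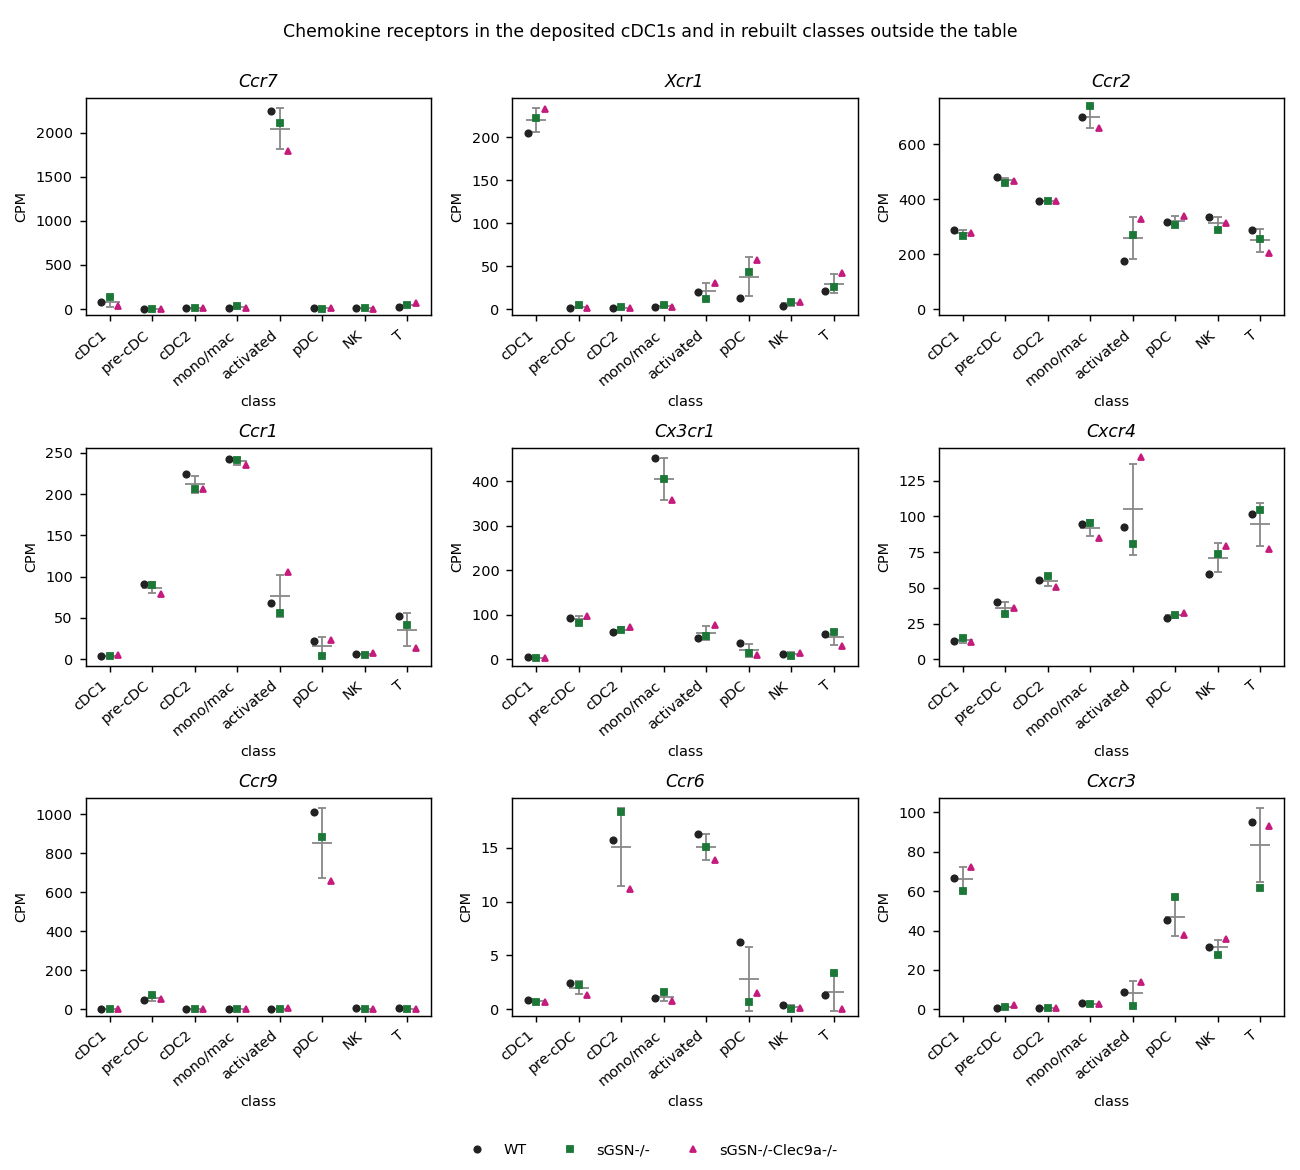
Level of each receptor gene (CPM) in the authors' cDC1s and in classes outside their table (pre-cDC, cDC2, monocyte or macrophage, activated cDC, plasmacytoid, NK and T cell-like); points are the 3 libraries, and lines and bars show mean and SD (n = 3). Ccr9 peaks in plasmacytoid-like cells (658 to 1011 CPM) and Cx3cr1 in monocyte- or macrophage-like cells (358 to 452 CPM).

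Counted over the classes, 5 of 9 receptors were higher in cDC2-like cells than in cDC1s (Cxcr4, Cx3cr1, Ccr1, Ccr2 and Ccr6) and 3 lower (Xcr1, Ccr7 and Cxcr3), where 28.1% of all 13009 genes tested were higher and 26.5% lower. In pre-cDC-like cells 6 of 9 were higher, these 5 and Ccr9, and 3 lower, against 26.1% and 25.5% of all genes. Both comparisons use the same cDC1 sums. In them the lower Ccr7 rested on cluster 8, since resting and early cDC1s, at 0.826 and 2.4 CPM on average, lay below both classes. The cDC2-like and pre-cDC-like means were 14.3 and 3.91 CPM, without the activated cDC-like barcodes, which formed their own class. In monocyte- or macrophage-like against cDC2-like cells, Cxcr4, Cx3cr1, Ccr2 and Cxcr3 were higher and Ccr6 lower, 4 and 1 of 9 against 18.2% and 13.7%. Of the 3, the last comparison changed most with where cells with both cDC2 and macrophage markers were placed. When barcodes led by Retnla and Ear2, and cycling cells with like markers, were counted as cDC2-like, a setting chosen after seeing the data, its log2 fold change became 0.19 for Ccr2, 0.42 for Cxcr3, -2.65 for Ccr6 and -1.50 for Xcr1, so that Ccr2 and Cxcr3 lost their calls, and Xcr1, Ccr9 and Ccr1 gained one. Xcr1 had been 1.06 (adjusted p = 0.113, and 0.0378 with the library as a block).

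Cluster 4, the first in the order of cDC1 clusters, lay between resting and pre-cDC-like cells for several receptors, given here as levels side by side. Ccr1 stood at 86.8 ± 7.06, 18.3 ± 13.6 and 2.21 ± 0.649 CPM in pre-cDC-like, cluster 4 and resting cells, Cx3cr1 at 90.4 ± 7.37, 16.8 ± 5.83 and 1.64 ± 1.17, and Cxcr4 at 35.8 ± 4.15, 25.3 ± 5.46 and 8.44 ± 0.877. In the reverse order, Xcr1 stood at 2.46 ± 1.60, 62.1 ± 16.5 and 251 ± 15 and Cxcr3 at 1.22 ± 0.666, 18.0 ± 5.38 and 86.4 ± 5.13. Cluster 4 lay between the other groups in each library for all 5. By mean it also lay between resting and cDC2-like cells, which held 212, 66.5, 54.7, 1.68 and 0.701 CPM in the same gene order. So it did for monocyte- or macrophage-like cells (240, 406, 91.9, 3.19 and 2.92), and the position is not particular to pre-cDC-like cells. Its 9 monocyte or macrophage markers summed to 168, 104 and 201 CPM in WT, sGSN-/- and sGSN-/-Clec9a-/-, against 59.7, 43.0 and 48.7 in resting cells. Of its 512 cells, 50 had doublet scores in the top 6% of all barcodes of their library, against 6 of 3499 resting cells. Without doublets its levels were 11.9 ± 7.76 for Ccr1, 14.0 ± 5.07 for Cx3cr1, 24.6 ± 3.95 for Cxcr4, 41.7 ± 10.6 for Xcr1 and 15.2 ± 5.99 CPM for Cxcr3, still between the other groups in each library, and the part of mixed droplets in them was not tested further. Ccr2 in cluster 4, at 305 ± 24.0, stood at the resting level (305 ± 6.90) and not at that of pre-cDC-like cells (469 ± 10.2), and Ccr9 stood at 56.3 ± 13.3 in pre-cDC-like cells and near the resting level (2.43 ± 0.179) in cluster 4, at 4.08 ± 1.81. The 5 pre-cDC markers (led by Cd7 in pre-cDC-like and by Kit in cluster 4 cells) summed to 874, 1089 and 871 CPM in pre-cDC-like cells, 428, 435 and 354 in cluster 4 and 289, 281 and 295 in resting cells, but cluster 6, at 564, 593 and 511, and cluster 10, at 641, 603 and 425, exceeded cluster 4. Cd7 alone gave 563, 672 and 557 CPM of the pre-cDC-like sums in WT, sGSN-/- and sGSN-/-Clec9a-/-. The pre-cDC-like class also met the marker thresholds for some cDC2 and plasmacytoid genes.

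Between genotypes, with 1 library each, no test was made, and a difference is described where the counting intervals do not overlap. Over all cDC1s, sGSN-/- lay apart from WT for 5 of 9 receptors: Ccr7 and Xcr1 were higher and Ccr2, Cx3cr1 and Cxcr3 lower, where 5.0% of all 17616 genes compared were apart and higher and 4.75% apart and lower. In sGSN-/-Clec9a-/- against sGSN-/-, 3 of 9 were apart, Ccr1 and Cxcr3 higher and Ccr7 lower, against 2.16% and 8.95% of 17202 genes. The 2 comparisons share the sGSN-/- library. Beside the lower Cx3cr1, the 9 monocyte or macrophage markers summed to 90.4 CPM in WT and 52.7 in sGSN-/- cDC1s. In WT, 4 cells of cluster 8 rich in these markers held 19 of the 144 Cx3cr1 UMIs. With the 11 clusters weighted equally the counts were 3 (Xcr1 higher, Ccr2 and Cx3cr1 lower) and 2 (Ccr7 and Cxcr4 lower), and on thinned cells 2 (Ccr7 higher, Ccr2 lower) and 1 (Ccr7 lower). Without doublets the counts stayed at 5 and 3 with other receptors among them: Cxcr4, higher in sGSN-/- than in WT and lower in sGSN-/-Clec9a-/- than in sGSN-/-, came in for Cx3cr1 in the first comparison and for Ccr1 in the second.

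Ccr7 over all cDC1s was 134 (129 to 139) against 77.5 (74.5 to 80.6) CPM in sGSN-/- against WT, a ratio of 1.73, and 30.3 (28.0 to 32.7) in sGSN-/-Clec9a-/-, 4.42-fold below sGSN-/-. Cluster 8 made up 84 of 2297 cDC1s in WT, 114 of 1683 in sGSN-/- and 57 of 1766 in sGSN-/-Clec9a-/-. Within cluster 8 the sGSN-/- and WT intervals overlapped, and sGSN-/-Clec9a-/- was 2.08-fold lower than sGSN-/-. With clusters weighted equally Ccr7 stood at 221, 223 and 114 CPM. In the activated cDC-like class outside the table sGSN-/-Clec9a-/- was 1.18-fold below sGSN-/-, with intervals apart (1653 to 1932 and 2026 to 2191). In cluster 8 Cxcr4 too was lower in sGSN-/-Clec9a-/-, 2.20-fold, and Ccr2 lower in sGSN-/- than in WT, 2.03-fold.

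Other receptors and classes also differed between libraries. In resting cells sGSN-/- and WT lay apart for Xcr1 (259 (251 to 268) against 234 (227 to 241) CPM) and Cx3cr1 (0.818 (0.408 to 1.46) against 2.98 (2.29 to 3.82)). Few cells carry this Cx3cr1: in resting cluster 5, 6 of 510 cells held 20 UMIs, and the libraries ranged from 0 to 6.85 CPM. The monocyte or macrophage markers of resting cells summed to 43.0 CPM in sGSN-/- and 59.7 in WT. Outside cDC1s, Ccr7 in monocyte- or macrophage-like cells was 31.4 (28.4 to 34.6) against 15.9 (14.5 to 17.3) in sGSN-/- against WT and 2.47-fold lower in sGSN-/-Clec9a-/- than in sGSN-/-, values that few barcodes carry: 55 of 764 sGSN-/- barcodes held a UMI, and 2 of them 101 of the 400 UMIs. Ccr9 in pre-cDC-like cells was 71.2 (64.5 to 78.4) against 45.8 (42.2 to 49.5) in sGSN-/- against WT, where the 8 plasmacytoid markers summed to 774 and 529.6, and Ccr6 in cDC2-like cells was 11.1 (9.20 to 13.3) against 18.3 (15.6 to 21.3) in sGSN-/-Clec9a-/- against sGSN-/-. Ccr2 in cDC2-like cells hardly varied, from 392 to 394 CPM.

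Genes with the most similar pattern were sought for the 5 receptors above 20 CPM in some cluster, by Pearson's r on log2 mean CPM over the 11 clusters among 6134 genes. The clusters share libraries, and r is a description here. Ccr7 was closest to Spred1 (r = 0.986), Grb2 (0.984) and Chpt1 (0.981), all highest in cluster 8. For Xcr1 the closest were Itgae (0.901), Lmbrd1 (0.899) and Lsr (0.893), for Ccr2 Dhx8 (0.985), Slc43a2 (0.981) and Gpx1 (0.970), for Cxcr4 Zbtb18 (0.934), Pygl (0.928) and Rnaset2b (0.902), and for Cxcr3 Cysltr1 (0.964), St3gal5 (0.954) and Hexa (0.951).

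Among the other chemokine receptor genes Ccrl2, an atypical receptor that binds chemerin, rose from 11.5 ± 1.15 CPM in resting cells to 119 ± 27.3 in cluster 8 (log2 fold change 3.60, adjusted p = 4.1e-14). It was also called higher in activated cells as a whole (log2 fold change 2.01, adjusted p = 4.8e-06).

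Of 18 ligands of the 9 receptors 12 could be tested in cDC1s. In cluster 8, 6 were higher than in resting cells (Ccl5, Cx3cl1, Cxcl9, Cxcl10, Ccl9 and Xcl1) and 4 lower (Ccl7, Ccl2, Ccl6 and Ccl4), against 25.5% and 22.2% of all genes, with a median log2 fold change of 1.20 against -0.03 for all genes. Ccl5, a ligand of CCR1, stood at 2737 ± 782 CPM there and 11.8 ± 5.87 in resting cells (log2 fold change 8.11, adjusted p = 2.7e-16), and Cx3cl1 at 41.2 ± 9.32 and 0.650 ± 0.118 (log2 fold change 6.13, adjusted p = 7.4e-15). In cluster 10, 3 were higher and 3 lower (8.32% and 6.34% of all genes), and its Cxcl9, a ligand of CXCR3, stood at 4832 ± 130.1. The CCR2 ligands Ccl2 and Ccl7 fell in cluster 8, Ccl2 from 208 ± 18.9 to 45.6 ± 25.5 and Ccl7 from 115 ± 11.8 to 17.5 ± 15.8. Xcl1 stood at 16.8 ± 18.5 in cluster 8 and 6.22 ± 4.62 in resting cells, not higher in WT, and the 8 NK cell markers summed to 19.4, 140.1 and 38.8 CPM in cluster 8 and 16.4, 41.4 and 26.0 in resting cells. Xcl1 was high in NK cell-like barcodes (1915 ± 175) and T cell-like barcodes (270.0 ± 14.8). Ccl19, Ccl21a, Ccl20 and Cxcl12, ligands of CCR7, CCR6 and CXCR4, stayed under 1 CPM on average in every cluster and class. In monocyte- or macrophage-like against cDC2-like cells 9 of 13 ligands tested were higher, as were 18.2% of all genes (median 1.93 against 0.03).

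Of 30 genes of signalling and desensitisation tested, 12 were higher and 9 lower in cluster 8 than in resting cells, where 25.5% and 22.2% of all genes were (median 0.15 against -0.03). Among the higher were Rgs1, which limits signals of chemokine receptors (1895 ± 136 CPM against 403 ± 56.3; log2 fold change 2.45, adjusted p = 1.5e-08), the receptor kinase Grk3 (log2 fold change 1.98, adjusted p = 1.6e-14) and the arrestin Arrb2 (log2 fold change 1.91, adjusted p = 5.6e-11). Rac2, Plcb2 and Rgs18 were among the lower (Rac2 log2 fold change -1.47, adjusted p = 9.3e-10). In activated cells as a whole 8 were higher and 7 lower (all genes: 16.3% and 11.4%), in early cells 4 and 8 (17.2% and 18.2%), and in cluster 10, 2 and 4 (8.32% and 6.34%).

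The 9 genes lie on 5 chromosomes of GRCm38. Cxcr4 is at chr1:128588199-128592293 (minus strand), Ccr7 at chr11:99144196-99155077 (minus), Ccr6 at chr17:8236043-8257141 (plus) and Cxcr3 at chrX:101731535-101734269 (minus). The other 5 are on chromosome 9: Cx3cr1 at chr9:119901616-120069879 (minus), Ccr9 at chr9:123678439-123784330 (plus), Xcr1 at chr9:123852315-123862029 (minus), Ccr1 at chr9:123962124-123968692 (minus) and Ccr2 at chr9:124101950-124113557 (plus). Ccr9, Xcr1, Ccr1 and Ccr2 lie close together, and these neighbours were not all highest in the same class. Ccr9 was highest in plasmacytoid-like and Xcr1 in cDC1 cells, and Ccr1 and Ccr2 were both highest in monocyte- or macrophage-like cells.

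Promoters of 8 of the 9 genes (all but Ccr7; 9 sequences) were found in RefSeq (GRCm38.p6), each from 250 bases before to 50 after the start of the gene. The spacing of an NF-kB site, 3 G and 2 C with 5 bases of any kind between them, was searched on both strands and occurred in 5 of the 9, and in 50.8% of all 32851 promoters of that length. The core of an interferon-stimulated response element, GAAA repeated after 2 bases of any kind, occurred in 0 of the 9 and in 3.44% of all. A match is a description of the letters alone. Of the receptors shown next, Ccr1 had 0 UMIs in cluster 8 of sGSN-/-Clec9a-/-, and its call there was lost under alternatives given above. The 250 bases before the start are shown for the 3 receptors that were higher in both early and cluster 8 cells, chosen after their values were seen, with matches of the NF-kB spacing in capitals: Ccr1 chr9:123968693-123968942 (minus strand), with a match 74 bases before the start, Cx3cr1 chr9:120068297-120068546 (minus), with a match 174 bases before the start on the other strand, and Cxcr4 chr1:128592300-128592549 (minus), with none.
Ccr1: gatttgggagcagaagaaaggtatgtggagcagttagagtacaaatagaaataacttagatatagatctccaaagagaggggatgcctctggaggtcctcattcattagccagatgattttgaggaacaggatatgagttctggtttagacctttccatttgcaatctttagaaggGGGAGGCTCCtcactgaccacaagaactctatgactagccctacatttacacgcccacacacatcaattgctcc
Cx3cr1: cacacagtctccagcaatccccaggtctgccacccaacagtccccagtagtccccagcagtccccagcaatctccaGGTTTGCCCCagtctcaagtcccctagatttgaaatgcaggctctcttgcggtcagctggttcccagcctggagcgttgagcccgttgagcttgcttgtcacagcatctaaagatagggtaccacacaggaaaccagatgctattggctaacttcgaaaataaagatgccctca
Cxcr4: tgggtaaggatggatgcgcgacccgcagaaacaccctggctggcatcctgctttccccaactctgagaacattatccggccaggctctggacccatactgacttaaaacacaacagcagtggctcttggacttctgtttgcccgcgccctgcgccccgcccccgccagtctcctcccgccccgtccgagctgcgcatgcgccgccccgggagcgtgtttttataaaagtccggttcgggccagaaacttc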

How the data were processed

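The matrices of 3 libraries that the authors deposited hold unscaled counts of UMIs for every gene and barcode, made with Cell Ranger 6.0.1 on mm10 (GRCm38), and a table with the library, the cluster and the UMI counts of each cDC1 of the authors, integrated and clustered with Seurat. The table's UMI counts were checked against the matrices. Levels are CPM (UMIs of a gene per 1e6 UMIs of a library and group), with exact Poisson intervals. Sums per library and group were tested with edgeR 4.0.16 in R 4.3.3 (quasi-likelihood, TMM, filterByExpr, BH 0.05), without a library term, and with DESeq2 1.42.0 and limma 3.58.1 for comparison. The mean correlation of residuals within a library, from the residuals of the edgeR design, was 0.173 to 0.215 between states, 0.0631 to 0.106 between clusters and 0.0801 to 0.109 between classes, and the block is an alternative. Calls were checked on simulated data.

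Barcodes with at least 200 genes and at most 16.662% mitochondrial UMIs (28855) were clustered (2000 variable genes, 50 components, 20 neighbours, Leiden resolution 1.0) with Python 3.11.15, scikit-learn 1.9.0, igraph 0.11.9 and leidenalg 0.10.2, without chemokine receptor genes. A class needed 3 markers found in 10% of barcodes and 2-fold above the median cluster. After seeing the data the rule was amended to keep clusters with most monocyte or macrophage markers out of the cDC2-like class. Doublets (the top 6% of a score in each library) were kept, and left out as an alternative.

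The members, and the lists of other receptors, ligands and signalling genes, were chosen with earlier results of these data known. Beside them, genes were named by rule: for each member at 20 CPM or more in a cluster, the 3 genes with the highest Pearson r over the 11 clusters. The comparisons, tests and first alternatives were set before the data were examined for this report, with those earlier results known. Ltb, Tbc1d4, the promoters shown, the amended class rule and the alternatives so described in the text were chosen after. Positions are from GENCODE M21 and promoters from RefSeq. Some items are withheld and are not reported here.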

Additional observations from a re-analysis of the deposited data

Results flagged for a closer look

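All 3 results are signals in barcodes that the authors' table leaves out and that no comparison of the cDC1 clusters uses, each above the level that a count of 0 allows in every library. Ccr2 was 864.5 CPM in the lowest of the 3 libraries in the barcodes led by Retnla and Ear2, which stayed unnamed because they carry markers of both cDC2s and macrophages. Ccr9 was 658.4 CPM in the lowest library in plasmacytoid-like barcodes, a class that the gates on B220 and Ly6D would remove. Ccr7 was 1789.0 CPM in the lowest library in activated cDC-like barcodes outside the table. What the cells of these barcodes were in the tumour was not tested beyond their markers.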

How the results depend on the processing

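Over 10 comparisons 48 receptor changes were called, and the alternatives gave 524 values for them. The direction was kept in all of these, and the side of the threshold in 503. Calls between activated and resting cells (40 of 40 values), early and resting cells (49 of 49) and cDC2-like cells and cDC1s (104 of 104) were kept under every alternative that gave a value. The other comparisons kept 25 of 30 values (cluster 7), 64 of 68 (cluster 8), 29 of 30 (cluster 10), 31 of 39 (cluster 8 against cluster 10), 98 of 99 (pre-cDC-like) and 63 of 65 (monocyte- or macrophage-like against cDC2-like).

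Of the counts of receptors, 106 values stayed within 1.5 times the count reported and 8 did not. Thinned to 3900 UMIs, the count called was 1 in cluster 7 (3 reported) and 2 between clusters 8 and 10 (4 reported), and between genotypes it was 2 for sGSN-/- against WT (5 reported) and 1 for sGSN-/-Clec9a-/- against sGSN-/- (3 reported). With the 11 clusters weighted equally it was 3 for sGSN-/- against WT. Without a filter on low counts it was 8 for monocyte- or macrophage-like against cDC2-like cells (5 reported). Thinning leaves fewer counts by construction, and the cause was otherwise not tested.

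Leaving out each library in turn, which leaves 2 per group, gave 4 to 4 calls for activated and 5 to 5 for early cells, 1 to 3 in cluster 7, 0 to 0 in cluster 9, 5 to 7 in cluster 8, 2 to 3 in cluster 10, 2 to 3 between clusters 8 and 10, 8 to 8 in cDC2-like, 8 to 9 in pre-cDC-like and 5 to 5 in monocyte- or macrophage-like against cDC2-like cells.

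The direction reversed for 6 receptor changes that had not been called. Leaving out each library in turn, the log2 fold change was -0.25 to 0.10 for Ccr9 between activated and resting cells (0.10 without sGSN-/-Clec9a-/-), -6.08 to 0.72 for Cx3cr1 in cluster 10 (0.72 without WT), -0.14 to 0.13 for Xcr1 between clusters 8 and 10 (0.13 without WT) and -0.0805 to 0.70 for Ccr7 between monocyte- or macrophage-like and cDC2-like cells (-0.0805 without sGSN-/-). On thinned cells Xcr1 between clusters 8 and 10 was 0.0360, and without TMM factors Xcr1 in cluster 7 was -0.00517. Between monocyte- or macrophage-like and cDC2-like cells Xcr1 was -1.50 when barcodes led by Retnla and Ear2 and cycling cells with like markers were kept in cDC2-like, a setting chosen after seeing the data. That setting also took Ccr2 (0.19) and Cxcr3 (0.42) below the threshold. The causes were not tested.

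Of shares of cells with a UMI, thinning to 2000 in place of 3900 UMIs gave 47.6% for Xcr1 and 50.6% for Ccr2 in cluster 6, 11.1% for Cxcr4 and 1.33% for Ccr6 in cluster 8, and 18.5% for Cxcr3 in cluster 2. At Leiden resolutions 0.5 and 2 no cluster met the rule for pre-cDC-like cells, so that comparison has no value there.

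Several limits hold for all values. With 1 pooled library per genotype, animals cannot be told apart, and the 3 libraries that serve as replicates differ in genotype. Depth limits the rare genes: Ccr6 gave 29, 17 and 14 UMIs in all cDC1s of the 3 libraries, and cluster 10 had 76 cells. The classes outside the table rest on marker genes. Transcripts of receptors need not match the protein at the surface, and these libraries hold no counts of protein. XCR1 protein served in the sort. The study also measured CCR7 protein on tumour cDCs by flow cytometry, which was not compared with these counts. RNA from other cells in the droplets was not removed, and reads of closely related receptor genes were taken as counted.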
